A study of Mus musculus with 31 samples.

Results

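The 8 neutrophil granule genes S100a8, S100a9, Ngp, Ltf, Camp, Lcn2, Elane and Mpo were followed over 31 mouse arrays. They were given as a list of names, drawn up with earlier results of these data known, and each is carried by 1 probe set that names a single gene, among 18194 genes with such a probe set. Of the 8, 7 were among the 14016 genes above a filter on low values; the probe set of Elane was not. The arrays covered untreated thymus and thymic tumors of C57BL/6 mice of 3 NDR1 genotypes, wild type (NDR1+/+, WT), heterozygous (NDR1+/-, HT) and homozygous mutant (NDR1-/-, KO). NDR1 is a serine/threonine kinase of the NDR/LATS family encoded by Stk38. Untreated thymus was profiled on 4 arrays per genotype, from 2 females and 2 males each. Tumors came from mice given N-ethyl-N-nitrosourea (ENU), an alkylating mutagen, at 100 mg/kg, and were collected when a tumor developed or, at the latest, 9 months after treatment. There were 5 WT, 7 HT and 7 KO tumors, of which 1 HT and 1 KO tumor were from males. Sample titles name thymocytes and tumor cells, whereas the tissue fields name thymus. Tumor state, ENU exposure and age cannot be told apart between thymi and tumors. The labels do not say how the NDR1 allele was made, nor whether each array is a separate animal, so p-values measure the spread between these samples.

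Neutrophils are short-lived phagocytes that mature in the bone marrow and fill their granules in order of maturation. Azurophil granules are made first, in promyelocytes, and carry myeloperoxidase (Mpo) and neutrophil elastase (Elane). Specific granules are made later, in myelocytes, and carry lactoferrin (Ltf), the cathelicidin Camp, neutrophilic granule protein (Ngp) and the siderophore-binding lipocalin Lcn2. S100a8 and S100a9 form calprotectin, an abundant cytosolic complex of neutrophils and monocytes that binds calcium and zinc. Granulocytes are a minor population of the thymus, which consists mainly of thymocytes. In bulk tissue, fewer neutrophils and less RNA per neutrophil cannot be told apart.

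The transcription factors C/EBP and PU.1 act in the granulocyte lineage. Over single arrays, 6 of the 8 members, all but Elane and Mpo, moved together more closely in thymi (Pearson r of 0.89 to 0.99) than in tumors (0.67 to 0.98). Pairs with Elane or Mpo, both low in signal, had r of 0.30 to 0.68 in thymi and -0.15 to 0.26 in tumors. The promoters of members that hold C/EBP letters are shown as a description, and the part of either factor in the members' values was not tested. The sequences are from RefSeq (GRCm38.p6), which had an entry for all 8 members, and run from 250 bases before to 50 bases after the gene start in the direction of the gene. Capitals mark exact matches to TTGCNNAA or its reverse complement TTNNGCAA (C/EBP letters) and to GAGGAA or its reverse complement TTCCTC (PU.1 letters), which do not overlap each other here. The regions are chr3:90695672-90695971, minus strand for S100a9, chr9:110419558-110419857, plus strand for Ngp, chr9:111019042-111019341, plus strand for Ltf and chr2:32387690-32387989, minus strand for Lcn2.
S100a9: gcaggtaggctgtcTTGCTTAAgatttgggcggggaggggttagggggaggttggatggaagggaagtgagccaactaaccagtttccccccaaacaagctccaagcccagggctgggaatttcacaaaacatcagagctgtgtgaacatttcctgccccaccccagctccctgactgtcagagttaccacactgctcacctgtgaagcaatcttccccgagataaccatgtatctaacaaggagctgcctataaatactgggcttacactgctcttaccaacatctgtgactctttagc
Ngp: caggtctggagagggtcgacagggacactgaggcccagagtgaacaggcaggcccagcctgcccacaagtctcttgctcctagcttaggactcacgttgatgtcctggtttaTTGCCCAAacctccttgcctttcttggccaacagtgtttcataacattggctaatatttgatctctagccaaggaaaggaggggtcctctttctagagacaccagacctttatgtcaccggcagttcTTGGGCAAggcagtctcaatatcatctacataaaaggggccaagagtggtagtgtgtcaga
Ltf: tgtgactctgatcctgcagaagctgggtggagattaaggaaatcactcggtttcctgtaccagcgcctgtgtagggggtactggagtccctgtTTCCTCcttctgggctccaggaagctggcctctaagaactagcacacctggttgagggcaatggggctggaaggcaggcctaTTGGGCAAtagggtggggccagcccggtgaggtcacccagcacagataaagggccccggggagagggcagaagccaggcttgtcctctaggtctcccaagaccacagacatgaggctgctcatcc
Lcn2: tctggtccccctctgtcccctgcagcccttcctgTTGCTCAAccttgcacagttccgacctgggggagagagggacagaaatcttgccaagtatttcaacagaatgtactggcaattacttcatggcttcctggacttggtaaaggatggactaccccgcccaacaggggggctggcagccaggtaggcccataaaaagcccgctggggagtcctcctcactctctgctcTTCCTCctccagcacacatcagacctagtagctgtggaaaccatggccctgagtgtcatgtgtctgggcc
The C/EBP letters occurred in 4 of the 8 member promoters, with 2 matches in Ngp, and in 10.8% of all 32851 promoters of the table. The PU.1 letters occurred in 5 of the 8, S100a8, Ltf, Lcn2, Elane and Mpo, and in 28.3% of all promoters. Camp held neither within this window. A match is a description of the letters, not a site of binding. S100a8 and S100a9 are neighbours on chromosome 3 with 0 protein-coding genes between them. Camp, Ngp and Ltf lie near each other on chromosome 9, with 8 protein-coding genes between Camp and Ngp and 20 between Ngp and Ltf. Lcn2 is on chromosome 2, Elane on chromosome 10 and Mpo on chromosome 11.

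Values are probe set intensities on a linear scale as deposited, and differences are on the scale of log2(intensity + 1). All arrays shared nearly the same sorted values, with a median of 20 and a maximum of 61750, so thymi and tumors were on a common scale whatever their cell make-up. The number of arrays and the spread within groups limit the precision. Thymocyte markers (10 of 11 measured, among them Cd3e, Cd4 and Rag1) averaged 12.87 to 13.03 log2 in thymi and 9.41 to 12.29 in tumors. Stk38 averaged 11.86 ± 0.15 log2 in WT, 11.44 ± 0.11 in HT and 10.92 ± 0.33 in KO thymus (SD, n = 4 each), the order of the labels. In tumors it averaged 12.15 ± 0.72 in WT (n = 5), 11.77 ± 0.75 in HT (n = 7) and 11.09 ± 1.89 in KO (n = 7), with overlapping ranges. The sources used here do not say whether the Stk38 probe set lies inside the altered part of the gene. RNA integrity, read from 3' over 5' control probe sets as a log2 ratio, was 0.26 to 0.50 in thymi and 0.18 to 4.87 in tumors.

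In untreated thymus, the calprotectin and specific granule genes were detected on WT arrays and stood lower on average in KO thymus, with HT thymus between, but no member passed the threshold across all genes. S100a8, a subunit of calprotectin, measured 2782, 1709, 1202 and 5779 on the 4 WT arrays. It measured 1605, 596, 2251 and 1553 in HT thymus and 293, 345, 1408 and 1065 in KO thymus. Of the 4 KO arrays, 3 lay below every WT array and 1, from a male, did not, so the groups overlapped. The log2 difference between KO and WT thymus was -1.94 (SE 0.50, 95% confidence interval -3.02 to -0.85), a mean 3.83 times lower, with a limma adjusted p of 0.372. S100a9, the partner subunit, measured 1932, 1068, 868 and 3737 in WT thymus. Its KO values were 149, 181, 1018 and 698, and its HT values lay between 460.1 and 1606. The KO groups of both calprotectin genes thus had a low pair, both from females, and a higher pair, both from males. For S100a9 the difference was -2.11 (SE 0.51, adjusted p = 0.306 in limma).

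Ngp, a cathelicidin-related protein of specific granules, had the largest difference of the 8 between KO and WT thymus. Its intensity was 1237, 330.1, 262 and 1451 in WT, 604, 149, 667 and 295 in HT and 36.5, 38.5, 194 and 72.5 in KO thymus. All KO arrays lay below all WT arrays, while KO and HT overlapped through 1 KO male at 194 and 1 HT female at 149. The log2 difference between KO and WT was -3.21 (SE 0.67, interval -4.67 to -1.75), a mean 9.26 times lower, with a limma adjusted p of 0.162. Ltf, the iron-binding protein of specific granules, measured 102, 45.9, 40.3 and 202 in WT and 14.4, 14.02, 36.8 and 15.6 in KO thymus. These groups were also separate, by a narrow gap between 36.8 and 40.3, and the HT values of 21.8 to 59.7 overlapped both. The difference for Ltf was -2.03 (SE 0.47, limma adjusted p = 0.254). Ngp and Ltf were the 2 members whose KO and WT arrays did not overlap, against 1.86% of all genes that were separate in either direction and 0.906% that were lower in KO. Each had an exact permutation p of 0.0286, the smallest that 4 against 4 arrays allow, and 0.21 after adjustment over the 88 permutation tests run on single members.

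Camp, the precursor of the antimicrobial peptide CRAMP, measured 383, 106, 61.0 and 561 in WT thymus. In KO thymus it measured 15.9, 15.5, 92.5 and 26.5, of which 1 array lay within the WT range. The difference was -2.74 (SE 0.74, limma adjusted p = 0.424). In KO thymus, Ltf on 3 of 4 arrays and Camp on 2 of 4 were below the array median of 20, so their differences also rest on values with little signal. Lcn2, which withholds iron from bacteria by binding their siderophores, ranged from 33.0 to 109 in WT, from 26.5 to 71.9 in HT and from 19.4 to 39.2 in KO thymus. The KO and WT ranges overlapped, with a difference of -1.33 (SE 0.36, limma adjusted p = 0.424). The azurophil enzymes were near the floor. Elane, a serine protease, ranged from 8.46 to 16.2 over all 12 thymi, below the median of its array on each. Mpo, the heme enzyme that makes hypochlorous acid, exceeded the array median on 3 of 12 thymi, 2 WT and 1 HT, and was highest at 60.7 in WT female 1. For Mpo the difference between KO and WT was -0.97 (SE 0.39, limma adjusted p = 0.899), and for Elane, fitted without the filter, it was -0.20 (SE 0.14, adjusted p = 1.0).

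**Figure D1:**
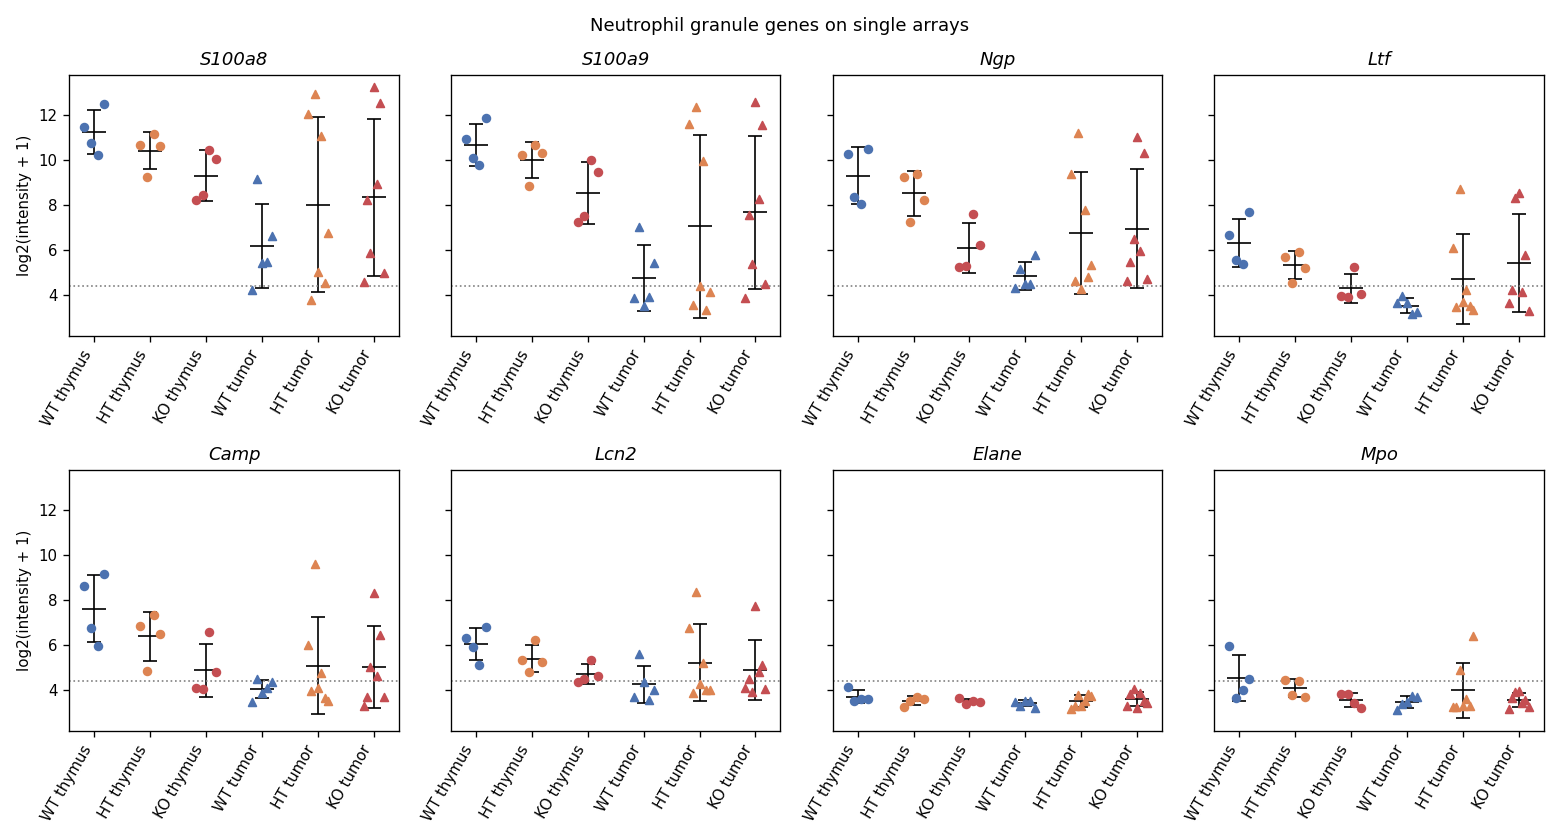
Each panel shows 1 gene on a log2(intensity + 1) axis for the 6 groups, with 1 point per array (circles thymus, triangles tumor), the mean and SD as a horizontal mark with bars, and the array median as a dotted line. KO thymus lies below WT thymus without overlap for Ngp and Ltf, tumors of each gene from S100a8 to Lcn2 spread more widely in HT and KO than in WT, and Elane stays below the dotted line throughout.

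Thus 0 of 7 tested members passed an adjusted p of 0.05 in limma between KO and WT thymus, where 0.186% of all 14016 genes did. At an unadjusted p under 0.05 the count was 7 of 7, where 4.99% of all genes passed; their median difference was -2.03, beside -0.01 over all genes. Ranked by p among all genes, Ngp stood at 43, Ltf at 64, S100a9 at 75, S100a8 at 86, Lcn2 at 102, Camp at 105 and Mpo at 475. Without WT male 1, 4 of 7 members passed, S100a8 (adjusted p = 0.021 in limma), S100a9 (0.0285), Ngp (0.0418) and Lcn2 (0.0218). Without any other single array the count was 0. Over single left-out thymi, 13 to 23 of all 14016 genes were called. WT male 1 was the lowest WT array for each of these 4 members, so leaving it out raises their WT mean by itself. Against HT thymus, the KO differences ranged from -0.52 for Mpo to -2.43 for Ngp, again with 0 of 7 members past the adjusted threshold (background 0.0571%) and 4 of 7, S100a8, S100a9, Ngp and Ltf, at an unadjusted p under 0.05 (background 8.38%). In the same comparison 8 of 8 thymic epithelium markers were negative, with a median of -0.68 and 7 of 8 at an unadjusted p under 0.05, as were 10 of 11 macrophage markers (median -0.09, 1 of 11 unadjusted); 0 of either list passed the adjusted threshold, and their part in the members' differences was not tested. Between HT and WT thymus the differences ranged from -0.46 for Mpo to -1.24 for Camp, with 0 of 7 past the adjusted threshold (background 0.0214%) and 0 of 7 at the unadjusted one (6.75%). These 3 comparisons share arrays with each other and are not independent.

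Ngp also stood lower in KO thymus relative to S100a8 on the same array. This ratio was set up after the values were seen. The log2 ratio of Ngp to S100a8 was -3.23 ± 0.45 in KO (SD, n = 4), -1.93 ± 0.53 in WT and -1.89 ± 0.41 in HT thymus. The KO arrays were separate from both other groups, with a difference of -1.29 from WT and -1.34 from HT. Each difference had an exact permutation p of 0.0286, and 0.214 after adjustment over the 15 ratio tests. For Camp the difference of this ratio between KO and WT was -0.85 (exact permutation p = 0.143), for S100a9 -0.17 (0.343), for Ltf -0.15 (0.8) and for Lcn2 0.58 (0.286). All 4 overlapped between KO and WT. In the 2 KO females, Ltf, Camp and Lcn2 measured 14.02 to 21.2, near the array median of 20, where a ratio says little.

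**Figure D2:**
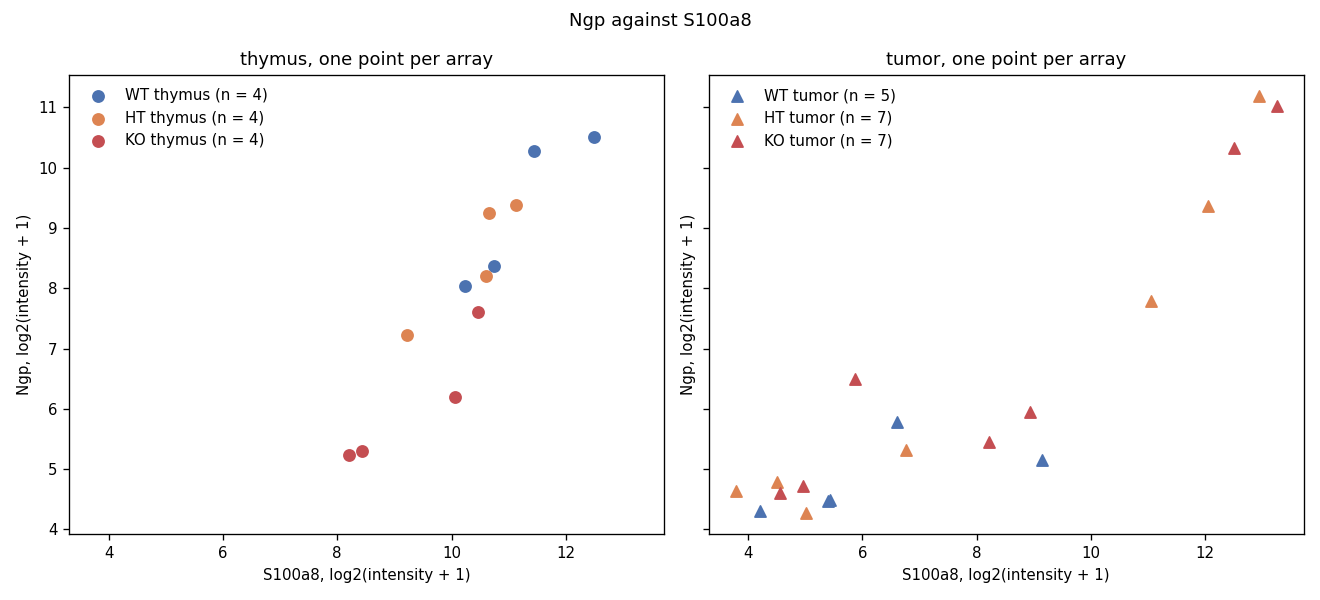
Ngp is plotted against S100a8, both as log2(intensity + 1), with 1 point per array, thymi on the left and tumors on the right, coloured by genotype. The 2 KO males lie lower in Ngp than WT or HT thymi of similar S100a8, the 2 KO females lie below all WT and HT thymi on both axes, and 4 tumors, 2 HT and 2 KO, stand highest on both axes.

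The other genes of the granulocyte program did not pass the threshold between KO and WT thymus. Of 15 tested specific granule genes outside the members, 12 had a negative and 3 a positive difference, with a median of -0.10. The 4 of highest mean level, Cyba, Lyz2, Cybb and Anxa1, differed by -0.04, -0.10, 0.06 and -0.89. Chil3, a chitinase-like protein of neutrophils and macrophages, differed by -2.38 (SE 0.63, limma adjusted p = 0.411), and Hp, haptoglobin, by -0.40 (adjusted p = 0.648); Hp was named after its value was seen. Of 8 azurophil granule genes, 3 were negative and 5 positive, with a median of 0.04. Prtn3 and Ctsg, serine proteases stored with Elane and named after their values were seen, differed by -0.32 and -0.25. The gelatinase granule and late neutrophil list had 9 negative of 14 tested (median -0.06), the neutrophil receptors 6 of 8 (-0.04) and the granulocyte transcription factors 4 of 7 (-0.05). In each of these 5 lists, 0 genes passed an adjusted p of 0.05 in limma. At an unadjusted p under 0.05, in either direction, 3 of 15 specific granule genes and 3 of 7 transcription factors passed. The count was 2 of 14 in the gelatinase list and 0 of 8 for both azurophil genes and receptors, where 4.99% of all genes passed. Markers of other cells, set beside the members, had medians of 0.27 for monocytes and macrophages (11 tested), 0.01 for B and plasma cells (8), 0.02 for thymocytes (10) and 0.01 for erythroid cells (5). The median was -0.09 for thymic epithelium (8, of which 7 negative and 2 at an unadjusted p under 0.05) and -0.24 for eosinophils, basophils and mast cells (3). It was -0.18 for platelets and megakaryocytes (4, of which 3 negative and 1 at an unadjusted p under 0.05) and -0.08 for hematopoietic progenitors (6, of which 4 negative). All these lists had 0 genes called. None of these lists was at 0 in level, since no probe set was below 4.06. Their part in the members' differences was not tested.

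Between male and female thymi, 0 of 7 members passed in limma, where 25.9% of all genes did and 38.6% had an unadjusted p under 0.05. At the unadjusted threshold, 2 of 7 passed, S100a9 at 1.21 (SE 0.42, limma adjusted p = 0.0546) and S100a8 at 1.05 (SE 0.40, adjusted p = 0.0778). The other differences, male minus female, ran from -0.37 for Mpo to 0.85 for Camp. With all 31 arrays in 1 fit, those of Ngp, Ltf and Lcn2 turned to -0.39, -0.14 and -0.063. Without WT male 1, 3 of 7 members passed, S100a8 at 1.43, S100a9 at 1.58 and Lcn2 at 0.63. WT male 1 was the lowest WT array for these 3 members, so leaving it out raises their male minus female difference by itself. Over single left-out thymi, 2852 to 3511 of all genes were called between the sexes, beside 3627 with none left out. Without WT female 1 or HT female 1, S100a9 alone passed, at 1.42 and 1.41, and the mean of a gene's probe sets left S100a9 called too (limma adjusted p = 0.0464). Of the thymic epithelium markers, 8 of 8 had a negative difference and 7 were called lower in males, and of the macrophage markers 11 of 11 were negative and 8 called.

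Over the 12 thymi, the 6 calprotectin and specific granule genes moved together. The 15 pairs among S100a8, S100a9, Ngp, Ltf, Camp and Lcn2 had Pearson r of 0.89 to 0.99 and Spearman rho of 0.91 to 0.98, each with a permutation p of at most 9.33e-05 for r and 0.000149 for rho after adjustment over 28 pairs. Without the 2 arrays farthest from the median of the first gene, r stayed between 0.85 and 0.99, and on deviations from the genotype mean it was 0.80 to 0.99. Pairs of one of these 6 with Elane or Mpo had r of 0.30 to 0.68 (12 pairs, 4 with an adjusted permutation p under 0.05). Elane and Mpo had r = 0.71 and rho = 0.42 (adjusted permutation p = 0.0465 and 0.225). Both are near the floor on most arrays, and r was 0.60 without the 2 farthest arrays.

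The genes most like the mean of the 8 members over the 12 thymi, out of 14009 non-members, were Chil3 (r = 0.99), Wfdc21 (0.90), Anxa1 (0.89), Mrpl12 (0.87), Gfer (0.85), Ifitm6 (0.85), Tsr3 (0.85), Bmi1 (0.85), Siva1 (0.83) and Cd177 (0.82). These r values describe likeness over 12 arrays and have no test. The range over thymi was 4.80 log2 units for Chil3 and 2.42 for Wfdc21, against 0.29 for Bmi1 and 0.40 for Mrpl12. Cd177 is a surface protein of neutrophils, and Anxa1 an anti-inflammatory protein abundant in them.

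In tumors the calprotectin genes were spread far more widely than in thymi. S100a8 measured 17.6, 567, 41.2, 42.5 and 95.9 in the 5 WT tumors. In HT tumors its lowest, median and highest values were 12.8, 108 and 7840.4, and in KO tumors 22.7, 295 and 9759. The lowest tumors were below the array median of 20, so no fold is given against them. Of 19 tumors, 11 lay below the lowest thymus and 3 above the highest. S100a9 measured 13.4, 128, 10.5, 14.04 and 42.3 in WT tumors, with 9.03, 19.8 and 5213 as lowest, median and highest in HT and 13.4, 186 and 6149.9 in KO tumors. For S100a9, 12 tumors lay below every thymus and 2 above.

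Of the specific granule genes, Ngp measured 18.7, 34.5, 21.3, 21.5 and 53.9 in WT tumors, of which 18.7, 21.3 and 21.5 were close to the array median. It measured 18.2, 38.7 and 2341 as lowest, median and highest in HT and 23.2, 60.7 and 2087 in KO tumors. Ltf ranged from 8.01 to 14.4 in WT, with a median of 11.7 and a highest value of 419 in HT and 17.6 and 364 in KO tumors. Camp ranged from 10.1 to 21.0 in WT, with a median of 15.6 and a highest value of 776 in HT and 23.4 and 318 in KO tumors. Ltf thus exceeded the array median in 5 of 19 tumors, and Camp and Lcn2 in 8 each, whereas Ngp did in 17, in some of them by little. Lcn2 ranged from 10.7 to 46.5 in WT, 13.6 to 319 in HT and 13.9 to 209 in KO tumors. Elane was below the array median in all 19 tumors (7.85 to 15.2), and Mpo in 17 of 19. HT tumor 7 had the highest Mpo of all arrays, 83.5, with Elane at 12, S100a8 at 108 and Ltf at 9.13; its 3' to 5' log2 ratio, 4.87, was also the highest, and the part of RNA integrity was not tested. KO tumor 3 had Ltf at 315 with S100a8 at 57.8 and Camp at 30.9. HT tumor 5 had S100a8 at 2117 and Ngp at 220.2, but Ltf at 17.5 and Camp at 25.8.

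Between WT tumors and WT thymus, 5 members did not overlap. For S100a8, S100a9, Ngp, Ltf and Camp, every WT tumor lay below every WT thymus, where 22.8% of all genes were separate in either direction and 11.9% lower in tumors. The log2 differences were -5.06 for S100a8 (SE 1.90), -5.82 for S100a9 (SE 1.90), -4.65 for Ngp (SE 1.38), -3.54 for Camp (SE 1.10) and -2.86 for Ltf (SE 1.07). Ngp was lower with a limma adjusted p of 0.0408 and was the 1 of 7 members past the threshold, where 6.56% of all genes passed. The adjusted p was 0.0516 for Camp, 0.0641 for S100a9 and 0.11 for S100a8 and Ltf in limma. This fit shares 1 estimate of the spread over all 31 arrays, so its SEs do not measure the spread of the WT arrays alone. For Ltf the SD was 0.32 in WT, 2.01 in HT and 2.19 in KO tumors. The exact permutation p was 0.00794 for S100a9, Ngp, Ltf and Camp, the smallest that 5 against 4 arrays allow, and 0.0159 for S100a8. After adjustment over the 88 permutation tests it was 0.14 and 0.2. Intensities in WT tumors were near or below the array median for Ltf and Camp, and for 3 of 5 arrays of both S100a9 and Ngp, so these differences depend on values with little signal. At an unadjusted limma p under 0.05, 7 of 7 members passed, where 21.7% of all genes did. At the adjusted threshold, 3.69% of all genes were called lower. The call of Ngp was lost, at a limma adjusted p of 0.0508 to 0.149, when any 1 of 13 arrays was left out: each WT thymus, HT thymus female 1 or male 2, each WT tumor, HT tumor 4 or KO tumor 2. It was also lost with no filter on low values (0.0517), with every probe set tested on its own (0.0509) and with RNA integrity (the log2 ratio above) in the fit (0.05), where Mpo was called in its place (0.0346). The number of members called was 0 to 3 over single left-out arrays, 3 of them without HT tumor 3 or HT tumor 7, and 3 without sex as a covariate. Over single left-out arrays, 366 to 1190 of all genes were called, beside 920 with none left out. All 5 WT tumors were from females, and the fit held sex as a covariate. In HT, the differences between tumor and thymus ran from -2.90 for S100a9 to -0.21 for Lcn2 and Mpo, with 0 of 7 called (background 3.5%; 0 of 7 at an unadjusted p under 0.05, background 15.1%). In KO they ran from -0.96 for S100a8 to 1.07 for Ltf, with 0 of 7 called (background 4.76%; 0 of 7 unadjusted, background 19.6%).

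Over all genotypes, S100a9 was lower in tumors than in thymus by a log2 difference of -3.18 (SE 1.11, limma adjusted p = 0.0378). It was the 1 of 7 members called, where 24.2% of all genes were called and 12.6% were called lower in tumors. S100a8 differed by -2.80 (SE 1.11, adjusted p = 0.0663 in limma), Ngp by -1.94 (0.0797), Camp by -1.56 (0.0794), Ltf by -0.82 (0.356), Lcn2 by -0.62 (0.354) and Mpo by -0.53 (0.196). At an unadjusted p under 0.05, 4 of 7 passed, where 37% of all genes did. The call of S100a9 was lost, at a limma adjusted p of 0.05 to 0.0979, without any 1 of 8 arrays: WT thymus female 1 or 2, HT thymus female 1, KO thymus female 2, WT tumor 1 or 4, HT tumor 4 or KO tumor 2. It was also lost with log2(value + 16) (0.0505) and with RNA integrity in the fit (0.103), where Mpo was called in its place (-0.88, adjusted p = 0.0248). Leaving out 1 of 5 other tumors raised the count, to 4 of 7 without HT tumor 3 or KO tumor 4, 3 without KO tumor 6 and 2 without HT tumor 1 or 7. HT tumors 1 and 3 and KO tumors 4 and 6 had the highest S100a8 of all tumors, and HT tumor 7 the highest Mpo. Leaving out any of these lowers the tumor mean of that gene by itself. Over single left-out arrays, 2649 to 3678 of all genes were called, beside 3390 with none left out.

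**Figure D3:**
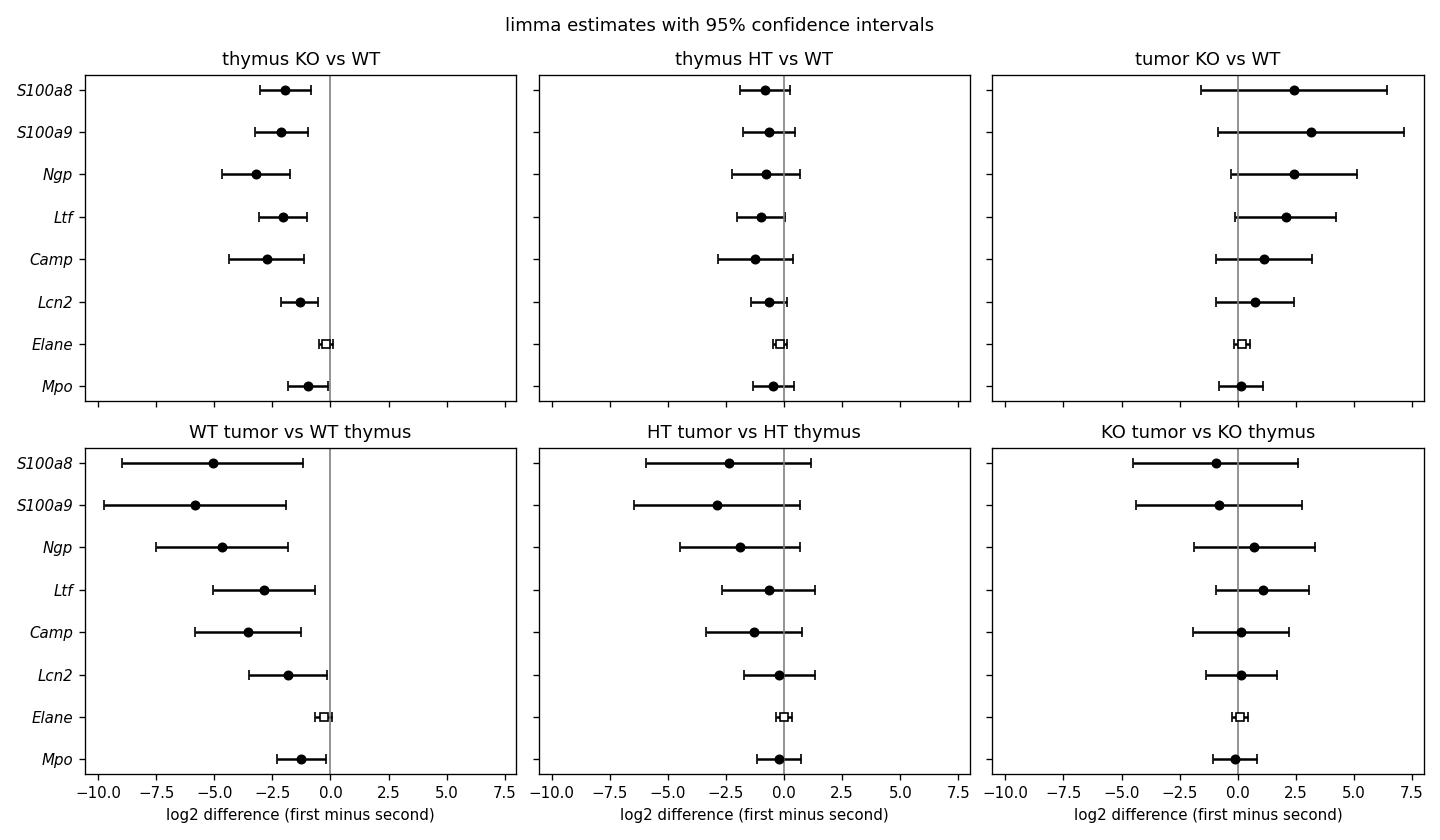
Each panel shows 1 comparison, with the limma log2 difference (first group minus second) as a point and its 95% confidence interval as a bar for each of the 8 genes; the open square marks Elane, fitted without the filter. Intervals of all 7 tested genes lie below 0 for KO against WT thymus and for WT tumor against WT thymus, and include 0 in the panels of HT against WT thymus, KO against WT tumors and HT and KO tumors against thymus.

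Between tumor genotypes, 0 of 7 members passed in limma in any of the 3 comparisons, where 0% of all genes passed. The differences between KO and WT tumors were 3.15 for S100a9 (SE 1.90), 2.43 for S100a8 (SE 1.90), 2.43 for Ngp (SE 1.28) and 2.07 for Ltf (SE 1.03). Those of Camp, Lcn2 and Mpo were 1.15, 0.75 and 0.14, and 0 of 7 had an unadjusted p under 0.05 (background 3.37%). Between HT and WT tumors they ran from 0.58 for Mpo to 2.53 for S100a9, with 0 of 7 unadjusted (2.78%), and between KO and HT tumors from -0.44 for Mpo to 0.70 for Ltf, with 0 of 7 unadjusted (1.1%). The change from thymus to tumor differed between KO and WT by 5.36 for Ngp (SE 1.79, interval 1.69 to 9.04), 3.93 for Ltf (SE 1.39) and 3.69 for Camp (SE 1.43), each with a limma adjusted p of 1.0. With this interaction, 0 of 7 members passed and 0% of all genes; 3 of 7, Ngp, Ltf and Camp, passed an unadjusted p under 0.05, where 0.849% of all genes did. The same term for HT against WT ran from 1.04 for Mpo to 2.92 for S100a9, with 0 of 7 at either threshold (0% adjusted and 1.05% unadjusted).

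The 4 tumors of highest S100a8, HT tumors 1 and 3 and KO tumors 4 and 6, were also the 4 of highest B cell and plasma cell markers. S100a8 measured 4226, 7840.4, 9759 and 5837 in them, and Ngp 656, 2341, 2087 and 1283. The mean of the 8 B cell markers above the filter was 12.81, 11.57, 12.91 and 12.94 log2 in these tumors, 4.68 to 10.42 in the other 15, and at most 7.54 in thymi. Over the 19 tumors S100a8 and this mean had r = 0.76 and rho = 0.69 (permutation p adjusted over 15 relations 0.0007 and 0.0054), and r = 0.66 without the 2 arrays farthest from the median. Among the other 15 tumors r was 0.25 and rho 0.38 (adjusted permutation p = 0.467 and 0.342). The 4 tumors left out were the highest on both axes, which narrows both ranges. Values over the other 15 therefore cannot show whether the relation rested on the 4. S100a8 related likewise to the specific granule list (r = 0.87, and 0.51 in the other 15), the neutrophil receptors (0.84 and 0.42), the gelatinase list (0.83 and 0.35) and the granulocyte transcription factors (0.78 and 0.39). It also related to the azurophil list (0.76 and 0.07), eosinophil, basophil and mast cell markers (0.68 and 0.64), macrophage markers (0.61 and 0.29) and, inversely, thymocyte markers (-0.62 and -0.25). These 9 relations had an adjusted permutation p for r of at most 0.00778 over all 19 tumors, and 0 of 15 had one under 0.05 among the 15. With erythroid markers r was 0.11, and with the 3' to 5' ratio 0.02.

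Without these 4 tumors, a setting added after the values were seen, 6 of 7 members (all but Mpo) were called between tumor and thymus and 6 of 7 between WT tumor and WT thymus in limma, where 33.4% and 11.7% of all genes were. Between HT tumors and HT thymus it was 4 of 7, S100a8, S100a9, Ngp and Camp (background 9.77%), and between KO tumors and KO thymus 0 of 7 (background 11.5%). The tumor differences between KO and WT were then 0.29 for S100a8, 1.03 for S100a9, 0.74 for Ngp and 1.25 for Ltf. Those between HT and WT were 0.00 for S100a8 and 0.20 for S100a9. The 4 tumors were also those in which the outcome was highest, so these values describe the remaining 15 tumors alone. The comparison of WT tumor with WT thymus lost no array of its own. Its differences became smaller in size, -4.67 for S100a8 and -5.41 for S100a9, while their limma adjusted p fell to 0.0158 and 0.00331. All groups share 1 estimate of the spread, so the added WT calls follow from leaving out extreme tumors of other genotypes. What part B cell or plasma cell content has in the members' values was not tested.

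**Figure D4:**
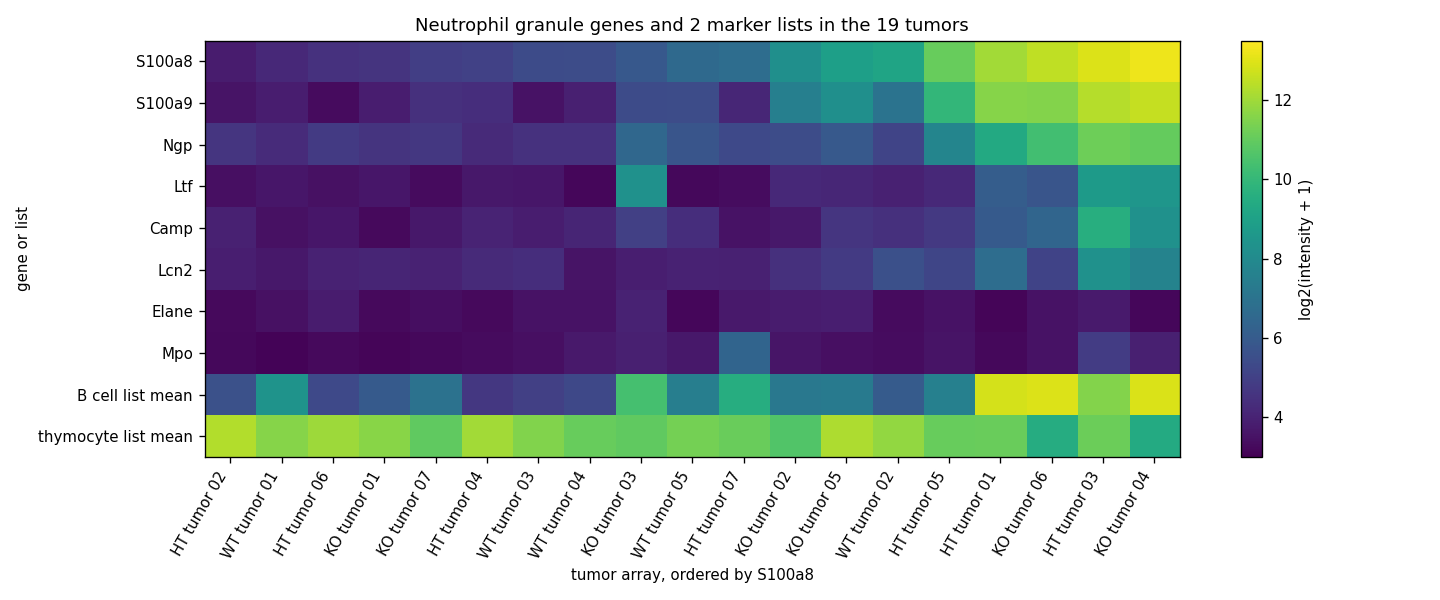
Colour gives log2(intensity + 1) of the 8 genes and the mean of the B cell and thymocyte marker lists (rows) on the 19 tumor arrays (columns, ordered by S100a8). The 4 columns at the right, HT tumors 1 and 3 and KO tumors 4 and 6, are bright for S100a8, S100a9 and Ngp and for the B cell list mean; HT tumor 7 stands out in Mpo and KO tumor 3 in Ltf.

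Among tumors, the 15 pairs of the 6 calprotectin and specific granule genes had r of 0.67 to 0.98 and rho of 0.65 to 0.92, with adjusted permutation p of at most 0.00401 for r and 0.00663 for rho. Without the 2 arrays farthest from the median, the lowest r was 0.37. In the 15 tumors other than the 4 above, r ran from 0.04 for Ltf with Lcn2 to 0.94 for S100a8 with S100a9, with a median of 0.60, and S100a8 with Ltf had 0.14. Pairs with Elane or Mpo had r of -0.15 to 0.26, and 0 of these 12 had an adjusted permutation p under 0.05 for r. Their rho ran from -0.18 to 0.62. By rank, Mpo related to S100a8 (rho = 0.62, adjusted permutation p = 0.00964), Ngp (0.55, 0.0273) and Camp (0.50, 0.049). The other pairs with Elane or Mpo had an adjusted permutation p above 0.05 for rho. Elane and Mpo had r = 0.35 (adjusted permutation p = 0.246).

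The genes most like the mean of the 8 members over the 19 tumors were Slpi (r = 0.93), Cpeb2 (0.93), Ighg3 (0.93), Ifitm6 (0.92), Wfdc21 (0.92), Pid1 (0.92), Eaf2 (0.92), Spn (0.92), Cmpk2 (0.92) and Reln (0.91). Slpi, the secretory leukocyte protease inhibitor, blocks neutrophil elastase, and Ighg3 is an immunoglobulin heavy chain. Ifitm6 and Wfdc21 were the 2 genes in the lists of 10 of both thymi and tumors. These values again describe likeness over arrays.

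Among the other genes of the granulocyte program, 8 were called between thymus and tumor, 5 of them higher in tumors, where 24.2% of all genes were called; the share called was below that in 3 of the 5 lists that held them, at 1 of 14, 1 of 7 and 2 of 15, and 2 of 8 in the others. Mmp9, the gelatinase of late granules, was higher in tumors by 2.64 (SE 0.60, limma adjusted p = 0.0023), and was the 1 of 14 in its list past the threshold. The transcription factor Cebpb was higher by 2.77 (SE 0.39, adjusted p = 9.82e-06 in limma), the 1 of 7 in its list. In the specific granule list Ceacam1 was higher by 2.11 and Olfm4 different by -0.51 (2 of 15). In the azurophil list Gusb was higher by 0.58 and Srgn differed by -1.41 (2 of 8), and among neutrophil receptors Fcgr3 was higher by 1.14 and Selplg differed by -0.46 (2 of 8). Several of these genes are also expressed outside neutrophils. Of the thymocyte markers, 9 of 10 had a negative difference and 7 were called lower in tumors, and of the epithelial markers 8 of 8 were negative and 5 called, where 12.6% of all genes were called lower. Between KO and WT tumors, 0 genes of these neutrophil lists passed, where 0% of all genes did. Of the B cell markers, 8 of 8 had a positive difference (median 3.18) and 0 of 8 passed. At an unadjusted limma p under 0.05, 4 of 8 B cell markers passed, where 3.37% of all genes did. The neutrophil lists had 1 of 8 azurophil genes, 0 of 15 specific granule genes, 1 of 14 gelatinase genes, 1 of 8 receptors and 0 of 7 transcription factors at that threshold.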

How the data were processed

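Total RNA of the 31 samples was hybridised to a 3' expression array, although the labels' protocols name a whole-transcript assay. The authors deposited normalized probe set intensity values on a linear scale, made with GCRMA per the submitters' processing notes (version not given in the sources used here). Sorted values of all arrays differed by at most 0.049% at any rank. Of 45100 probe sets with values, 34957 named 1 gene, 932 several and 9211 none; those with 1 were used, and 99.4% of them matched the RefSeq table. A gene was read from its probe set with the highest overall mean and was tested where that log2(intensity + 1) mean exceeded the 25th percentile (3.61), which Elane (3.52) did not. The S100a8 probe set, of the _s_at type, can match more than 1 transcript.

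Differences were tested with limma 3.58.1 in R 4.3.3 (lmFit, eBayes, sex as a covariate), over thymi, tumors or all arrays, with Benjamini-Hochberg adjustment over 14016 genes and a threshold of 0.05; the script was tested on simulated data. A negative difference means lower in the first group named. Single members were also tested by 2-sided exact permutation tests, or with 100000 resamples where both groups held 10 or more arrays, and relations by permutation (scipy 1.17.1). The ratio to S100a8 and the setting without the 4 tumors of highest B cell marker mean were added after the values were seen. The members and the gene lists were chosen with earlier results of these data known. Named genes were the members, Stk38, up to 4 genes per list (past the threshold by smallest p, otherwise by highest mean) and the 10 genes most like the members; exceptions are stated.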

Additional observations from a re-analysis of the deposited data

Results flagged for a closer look

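In 48 groups of members and sample groups, the highest or lowest array stood far from the others in 4 by Dixon's test, which chance does in about 1 in 20 groups. Ltf in KO thymus was 5.24 log2 (intensity 36.8) in male 1 against 15.6 in the next array, and Elane in WT thymus was 4.10 (16.2) in female 1 against 10.98. Camp in HT tumors was 9.60 (776) in tumor 3 against 61.6, and Lcn2 in KO tumors was 7.71 (209) in tumor 4 against 33.3. The 2 tumors are among the 4 of highest B cell marker mean.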

How the results depend on the processing

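The counts of called members kept within 1.5 times the reported count under log2(value + 16), no filter, every probe set on its own, the mean of a gene's probe sets, no sex covariate, quantile normalization again, the 3'/5' ratio as a covariate, eBayes with trend and robust options and all thymi or tumors in 1 fit, except as follows; causes were not tested. Between tumor and thymus (1 member) it was 0 with log2(value + 16), 3 with no sex covariate and 6 without the 4 tumors of highest B cell marker mean. Between WT tumor and WT thymus (1) it was 0 with no filter and with every probe set on its own, 2 with the mean of probe sets, 3 with no sex covariate and 6 without the 4 tumors, none of them WT. Between HT tumor and HT thymus (0) it was 4 without the 4 tumors, and between male and female thymi (0) it was 1 with the mean of probe sets. Leaving out single arrays gave 0 to 4 between KO and WT thymus, 0 to 3 between the sexes, 0 to 4 between tumor and thymus and 0 to 3 between WT tumor and WT thymus. Differences that changed sign were Ngp -0.39, Ltf -0.14 and Lcn2 -0.063 between the sexes with all 31 arrays in 1 fit; Mpo between KO and WT tumors (-0.0209 with the 3'/5' ratio, -0.0116 with the replicate block); and Lcn2 between HT tumor and HT thymus (0.0275 with the 3'/5' ratio). Without the 4 tumors, Lcn2 between KO and WT tumors (-0.0071), Camp between HT and WT (-0.0248) and between KO and HT tumors (0.0622), and Ngp, Camp and Lcn2 between KO tumor and KO thymus (-0.58, -0.67 and -0.36) also changed sign. Over single left-out arrays the sign changed for Mpo between HT and WT thymus (-0.86 to 0.0089), for S100a8 (-0.47 to 1.10), S100a9 (-0.17 to 1.48), Ngp (-0.46 to 0.87), Camp (-0.60 to 0.66) and Lcn2 (-0.79 to 0.18) between KO and HT tumors, for Lcn2 between HT tumor and HT thymus (-0.69 to 0.0532), and for Camp (-0.36 to 0.66) and Lcn2 (-0.28 to 0.36) between KO tumor and KO thymus. Without covariates, Elane between KO and HT thymus ran from -0.11 to 0.038 and Mpo between KO and WT tumors from -0.0036 to 0.15. Same-numbered arrays of different genotypes had residual correlations of -0.583 to 0.424 over 29 pairs. Differently numbered arrays were not compared, so these values do not settle whether the numbers pair samples. The replicate block changed no count of called members. Over all genes, the number called moved from 26 to between 0 and 38 for KO against WT thymus, from 8 to 0 to 15 for KO against HT thymus, from 3 to 0 to 4 for HT against WT thymus, from 3627 to 32 to 8513 between the sexes, from 3390 to 2522 to 7050 for tumor against thymus, from 920 to 366 to 1642 for WT, from 491 to 228 to 1369 for HT and from 667 to 294 to 1611 for KO tumor against thymus. Intensities near the array median of 20 carry little signal, which limits Elane and Mpo everywhere Ltf and Camp in KO thymus, and Ltf, Camp and Lcn2 in most tumors.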

Other observations

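Over the 19 tumors, the genes most like the mean of Elane and Mpo were Slc1a3 (r = 0.83), Itih1 (0.81), Aldh1l2 (0.81), Hgf (0.80) and Ak8 (0.80), none of them among the 10 most like all 8 members. Their mean levels in tumors were 4.13, 3.99, 3.92, 3.83 and 3.83 log2, below the array median, so these relations are between values near the floor.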
